A study of Homo sapiens with 6 samples.

Results

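A set of 10 glutathione transferase genes was followed in SiHa cells, namely GSTP1, GSTK1, GSTO1, GSTM3, GSTM4, GSTA4, GSTZ1, MGST1, MGST2 and MGST3. They were found by gene symbol in the deposited table, and the row with the highest mean level was kept where a symbol stood on several. This gave 10 genes out of 35544 loci, each with a row of its own, and 8 of the 10 reached the filter on low values (at least 1 FPKM in at least 3 of the 6 libraries). FPKM is the number of sequenced fragments scaled by transcript length and by library size, so levels can be compared between genes. SiHa is an established human cervical squamous carcinoma line. Cells of this line received either an empty vector plasmid (3 libraries) or a plasmid encoding the circular RNA hsa_circ_0005358 (3 libraries), and polyA RNA was taken 72 h after transfection in both groups. The study used this contrast to look for mRNAs downstream of the circular RNA, whose own level was not analysed here because a circular RNA has no polyA tail. The labels number the libraries without tying them to separate cultures, and each p-value below rests on the variation among these 6 libraries, part or all of which may be technical.

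Glutathione transferases join the tripeptide glutathione to reactive, mostly fat-soluble compounds, which makes them soluble and marks them for export. Cytosolic enzymes of the alpha (GSTA4), mu (GSTM3, GSTM4), pi (GSTP1), omega (GSTO1) and zeta (GSTZ1) classes share a common fold. GSTK1, the kappa enzyme, lies in mitochondria and peroxisomes and has a different, thioredoxin-like fold. The microsomal enzymes MGST1, MGST2 and MGST3 are integral membrane proteins of an unrelated family, MAPEG, which also makes leukotrienes and prostaglandins. GSTP1 is usually the main cytosolic form in epithelial tumours, and the alpha forms dominate in liver. Several of these genes are known targets of NRF2, the transcription factor of the oxidative stress response, which binds the antioxidant response element.

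Promoter windows from 250 bases before to 50 bases after the start were taken from RefSeq (GRCh38.p14) and were found for 9 of the 10 genes, in 11 windows; MGST2 had no matched window. The windows of GSTP1 and GSTK1 are shown because these genes rose, and that of GSTO1 because it held the most matches to the antioxidant response element core of any of the 9 genes. Capitals mark matches, on either strand, to the antioxidant response element core (TGACNNNGC), the AP-1 site (TGANTCA), the GC box (GGGCGG) and the TATA box (TATAAA). All 3 windows lie on the plus strand, GSTP1 at chr11:67583562-67583861, GSTK1 at chr7:143263191-143263490 and GSTO1 at chr10:104254642-104254941.
GSTP1: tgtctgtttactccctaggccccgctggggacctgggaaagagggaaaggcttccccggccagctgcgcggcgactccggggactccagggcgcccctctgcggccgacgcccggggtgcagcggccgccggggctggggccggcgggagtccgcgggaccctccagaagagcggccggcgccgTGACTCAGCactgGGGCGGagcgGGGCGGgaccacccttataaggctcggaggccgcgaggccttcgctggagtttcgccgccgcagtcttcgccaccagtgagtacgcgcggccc
GSTK1: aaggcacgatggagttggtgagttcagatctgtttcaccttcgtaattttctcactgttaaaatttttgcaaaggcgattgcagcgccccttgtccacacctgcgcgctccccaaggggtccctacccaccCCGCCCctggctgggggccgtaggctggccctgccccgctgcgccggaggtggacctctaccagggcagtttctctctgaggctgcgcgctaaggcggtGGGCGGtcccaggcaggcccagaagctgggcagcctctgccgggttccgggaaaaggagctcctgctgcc
GSTO1: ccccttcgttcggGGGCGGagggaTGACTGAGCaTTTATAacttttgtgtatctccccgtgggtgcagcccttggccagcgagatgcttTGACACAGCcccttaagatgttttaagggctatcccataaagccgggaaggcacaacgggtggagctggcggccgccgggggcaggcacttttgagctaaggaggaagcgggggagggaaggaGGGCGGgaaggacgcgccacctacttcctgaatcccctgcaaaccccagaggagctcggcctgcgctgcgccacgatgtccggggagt

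In the GSTP1 window the antioxidant response element core TGACTCAGC began at position -66, counted from the start, and overlapped the AP-1 match TGACTCA at the same position. Beyond it lay 2 GC boxes at -53 and -43. The GSTK1 window held 2 GC boxes and neither an antioxidant response element core nor an AP-1 match. The GSTO1 window held TGACTGAGC and TGACACAGC, which began at -226 and -161. Matches to the core were also found for GSTA4 (TGACCTGGC) and in 1 of the 3 MGST1 windows (TGACAAAGC). Thus 4 of 9 genes had one in at least 1 window, against 13.3% of 35116 single promoter windows of the same length. For every motif a gene counted if any of its windows matched, so counts of genes and shares of single windows are not like measures. The AP-1 motif stood in the GSTP1 window alone among the members and in 7.71% of all windows. GC boxes were found for 7 of the 9 genes, against 45.0% of all windows, and the TATA box for GSTO1 and MGST1, against 11.5%. A shorter motif, the xenobiotic response element core (GCGTG), was found for GSTM3, GSTM4, GSTZ1 and MGST3, against 36.5% of all windows, and is not capitalised. The windows differed in base composition. GSTP1 and GSTZ1 had 74.0% and 74.3% G or C with 36 and 33 CpG dinucleotides, GSTM3 had 41.3% with 1 CpG, and the median of all windows was 58.7% with 14. The RefSeq starts used for GSTK1 and GSTO1 lie inside the longer gene spans that GENCODE gives, and motif matches describe the letters of these windows only.

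The members spanned a wide range of levels. GSTP1 RNA was the most abundant, with 81.8 ± 2.79 FPKM (SD, n = 3) in cells given the vector, followed by MGST1 with 35.4 ± 1.79, GSTO1 with 27.7 ± 0.371 and GSTK1 with 13.9 ± 0.609. MGST3 stood at 11.4 ± 0.392, GSTM3 at 7.06 ± 0.146, MGST2 at 3.45 ± 0.429 and GSTZ1 at 1.15 ± 0.0948 FPKM. No pair of genes next to each other in this order had overlapping vector libraries. In cells given the circular RNA plasmid the order was the same, and MGST1 and GSTO1 were the only neighbours whose libraries overlapped. Over all 10 genes the FPKM summed to 186, 183 and 177 in vector replicates 1 to 3 and to 200.3, 208 and 213 in circ_0005358 replicates 1 to 3. GSTP1 alone made up 44.2% to 45.6% of that sum with vector and 46.3% to 53.0% with the circular RNA plasmid.

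**Figure D1:**
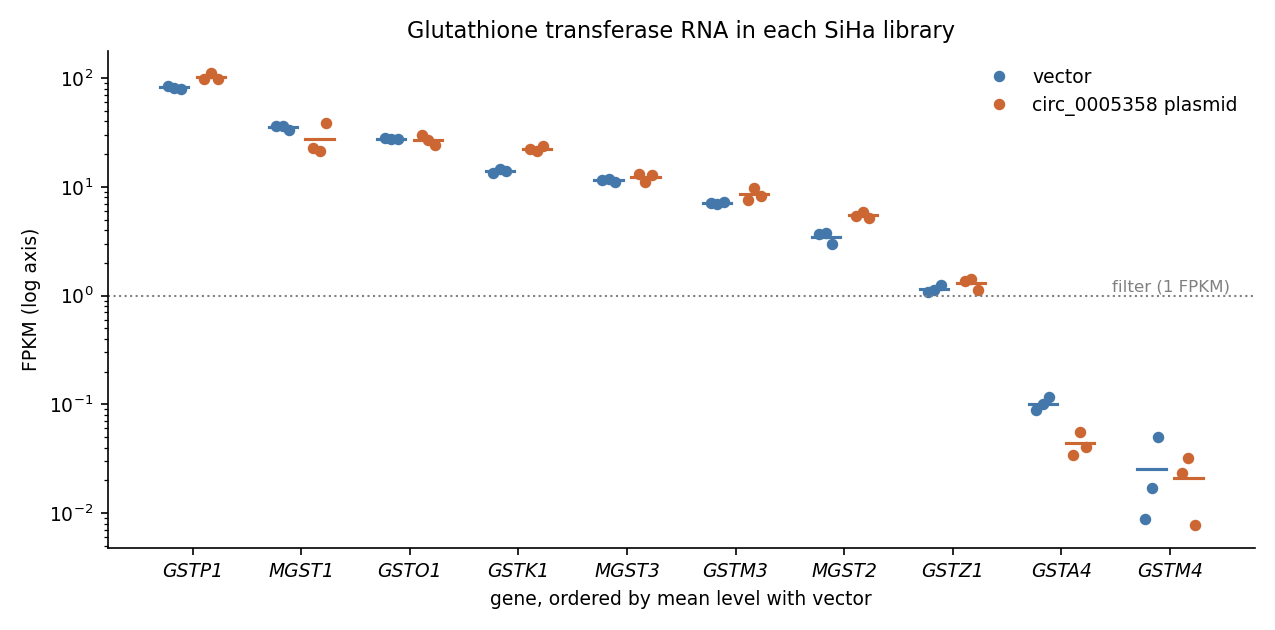
FPKM (log axis) of the 10 genes in each library, with blue points for vector and orange points for the circular RNA plasmid; horizontal bars are group means and the dotted line is the filter at 1 FPKM. GSTP1 lies highest at 79.4 to 110.3 FPKM, 8 genes lie above the line, and GSTA4 and GSTM4 lie far below it.

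Of the 8 tested genes, 3 rose with the circular RNA plasmid (GSTK1, MGST2 and GSTP1), 0 fell and 5 did not pass the threshold (limma on log2(FPKM + 1), Benjamini-Hochberg adjusted p of 0.05 over all 10295 tested loci). Across all tested loci 11.4% passed, 6.41% as higher and 4.96% as lower. The median log2 fold change of the 8 genes was 0.17, against 0.02 for all tested loci. The members were chosen with earlier results of these data known, so these comparisons are no test of the set. Groups did not overlap for 4 of the 8 genes (the 3 that rose and GSTM3), a state reached by 35.8% of all tested loci. Exact two-sided permutation tests of 3 against 3 libraries cannot give a p below 0.1. In bulk RNA, fewer cells that express a gene and less RNA per cell cannot be told apart.

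**Figure D2:**
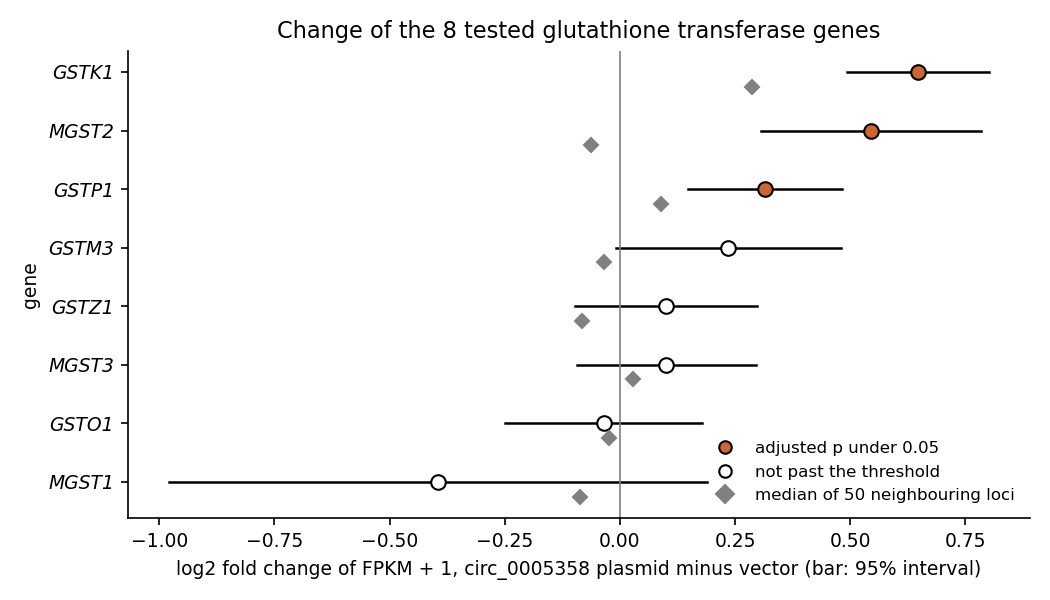
Log2 fold change of FPKM + 1 (circular RNA plasmid minus vector) of the 8 tested genes with 95% intervals. Filled circles have an adjusted p under 0.05, and grey diamonds give the median of 50 neighbours, the 25 tested loci on each side of each gene. GSTK1 (0.65), MGST2 (0.54) and GSTP1 (0.31) lie right of 0 with intervals that do not reach it, and MGST1 has the widest interval.

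The kappa enzyme gene GSTK1 (ENSG00000197448, chromosome 7, 143244093 to 143270854, plus strand, GENCODE 29 on GRCh38) showed the clearest increase. Its levels were 13.25, 14.46 and 14.01 FPKM in the vector libraries and 22.18, 21.39 and 23.47 FPKM in the libraries with the circular RNA plasmid. All 3 libraries with the plasmid lay well above all 3 vector libraries, and the spread within each group was small. The mean rose by 60.7%, from 13.9 ± 0.609 to 22.3 ± 1.05 FPKM (SD, n = 3). On the log2(FPKM + 1) scale of the test the log2 fold change was 0.65 (SE 0.061, limma adjusted p = 0.0036). With 0.1 added in place of 1 it was 0.68. GSTK1 passed the threshold under 17 of 19 alternative settings. The call was lost with a replicate block (adjusted p = 0.052) and without both libraries numbered 3 (adjusted p = 0.071), and leaving out any single library kept it.

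GSTP1, the pi-class enzyme (ENSG00000084207, chromosome 11, 67583595 to 67586656, plus strand), rose by 24.8%. Its levels were 84.9, 81.1 and 79.4 FPKM with vector and 97.5, 110.3 and 98.5 FPKM with the circular RNA plasmid. The groups did not overlap, and circ_0005358 replicate 2 was the highest library. The mean went from 81.8 ± 2.79 to 102 ± 7.11 FPKM (SD, n = 3). On the log2(FPKM + 1) scale the log2 fold change was 0.31 (SE 0.067, limma adjusted p = 0.041). This call lies close to the threshold: it held under 6 of 19 alternatives, and leaving out any 1 of the 6 libraries ended it, with adjusted p between 0.061 and 0.124. The log2 fold change stayed between 0.24 and 0.35 under all 19.

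Neither of the other expressed cytosolic enzymes of the omega and zeta classes passed the test. GSTO1, which reduces dehydroascorbate and methylated arsenic species (chromosome 10, 104235356 to 104267459, plus strand), had 28.1, 27.6 and 27.4 FPKM in the vector libraries and 30.2, 26.8 and 24.4 FPKM with the circular RNA plasmid. The vector libraries lay within the range of the others, and the log2 difference was -0.04 with a 95% interval from -0.25 to 0.18 (limma adjusted p = 0.83; exact permutation p = 0.7). Its sign changed between the fits that left out 1 library, which gave -0.11 to 0.04. GSTZ1, an isomerase of tyrosine breakdown (chromosome 14, 77320884 to 77331597, plus strand), had 1.08, 1.12 and 1.26 FPKM with vector and 1.37, 1.42 and 1.13 FPKM with the plasmid. Its groups overlapped through circ_0005358 replicate 3 (log2 difference 0.10, SE 0.079, limma adjusted p = 0.48). Without that library the log2 difference was 0.16 (adjusted p = 0.31), and without circ_0005358 replicate 2 it was 0.07 (adjusted p = 0.70). GSTZ1 is also the only 1 of the 10 genes whose row is not annotated to glutathione metabolism in the deposited table.

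The mu-class gene GSTM3 (chromosome 1, 109733932 to 109741038, minus strand) had 7.10, 6.89 and 7.17 FPKM in the vector libraries. In the libraries with the circular RNA plasmid it had 7.58, 9.83 and 8.18 FPKM, with circ_0005358 replicate 2 again the highest. The groups did not overlap, but the difference did not pass the test (log2 difference 0.24, SE 0.098, limma adjusted p = 0.20). Without circ_0005358 replicate 2 the log2 difference was 0.14 (adjusted p = 0.26). Its neighbour in the mu cluster, GSTM4 (chromosome 1, 109656081 to 109674836, plus strand), lay between 0.0077 and 0.0498 FPKM in all 6 libraries, below the filter. Mu-class genes are similar in sequence, so reads may be split among them and low values are uncertain. GSTM1 was listed at 0 in 5 libraries and at 0.0078 FPKM in circ_0005358 replicate 1, GSTM2 did not exceed 0.0822 FPKM and GSTM5 did not exceed 0.0194 FPKM. Of the mu cluster, GSTM3 was therefore the only member above 1 FPKM in these cells.

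GSTA4, an alpha-class enzyme that conjugates the lipid peroxidation product hydroxynonenal (chromosome 6, 52977948 to 52995378, minus strand), was also below the filter. It had 0.0884, 0.0999 and 0.117 FPKM with vector and 0.0344, 0.0562 and 0.0409 FPKM with the circular RNA plasmid. The vector libraries were all higher, at levels where 1 fragment on a transcript of 1 kb is worth 0.0435 to 0.0612 FPKM. With no filter on low values, limma gave adjusted p = 0.30 for GSTA4 and 0.90 for GSTM4. Another alpha-class gene, GSTA2, had 0.337, 0.595 and 0.131 FPKM with vector and 0.0573, 0.0466 and 0.0777 FPKM with the plasmid, also below the filter.

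Among the membrane enzymes, MGST2 (chromosome 4, 139665768 to 139740745, plus strand), which conjugates glutathione to leukotriene A and to reactive lipids, rose. Its levels were 3.65, 3.74 and 2.96 FPKM in the vector libraries and 5.38, 5.89 and 5.16 FPKM with the circular RNA plasmid. Every library with the plasmid was above every vector library, and vector replicate 3 was the lowest. The mean rose by 58.7%, from 3.45 ± 0.429 to 5.48 ± 0.376 FPKM (SD, n = 3). On the log2(FPKM + 1) scale of the test the log2 fold change was 0.54 (SE 0.096, limma adjusted p = 0.024). With 0.1 added in place of 1 it was 0.66. The call held under 9 of 19 alternatives, with adjusted p from 0.024 to 0.11 over all of them. It was lost on leaving out vector replicate 1 (0.063) or 2 (0.056) or circ_0005358 replicate 1 (0.068), 2 (0.069) or 3 (0.063), and kept without vector replicate 3 (0.045).

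MGST1 (chromosome 12, 16347142 to 16609259, plus strand), a detoxifying enzyme of the endoplasmic reticulum and outer mitochondrial membrane, was decided by 1 library. It had 36.3, 36.5 and 33.3 FPKM with vector, and 22.9, 21.1 and 38.9 FPKM in circ_0005358 replicates 1 to 3. Replicates 1 and 2 lay below every vector library and replicate 3 lay above all of them. The log2 difference over all libraries was -0.39 (95% interval -0.98 to 0.19, limma adjusted p = 0.35). Without circ_0005358 replicate 3 it was -0.66 (adjusted p = 0.020), and without both libraries numbered 3 it was -0.70 (adjusted p = 0.055). Without circ_0005358 replicate 1 it was -0.29 (adjusted p = 0.55) and without replicate 2 it was -0.23 (adjusted p = 0.60). MGST1 therefore made up 18.8% to 19.9% of the summed FPKM of the 10 genes with vector, 11.4% and 10.2% in circ_0005358 replicates 1 and 2, and 18.3% in replicate 3.

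MGST3 (chromosome 1, 165630861 to 165661796, plus strand), the third microsomal enzyme, had 11.6, 11.8 and 11.0 FPKM with vector and 13.1, 11.1 and 12.9 FPKM with the plasmid. These groups overlapped, and the log2 difference of 0.10 had a 95% interval from -0.09 to 0.30 (limma adjusted p = 0.47). It was 0.06 without circ_0005358 replicate 1 and 0.17 without replicate 2 (adjusted p = 0.70 and 0.17). A second row of MGST3 held 0.399 to 0.658 FPKM and was not used. PTGES, the MAPEG enzyme that makes prostaglandin E, varied widely within both groups. Vector libraries had 54.3, 26.3 and 160 FPKM of PTGES, and those with the plasmid had 22.7, 17.9 and 127 FPKM (limma adjusted p = 0.70). It was highest in both libraries numbered 3.

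**Figure D3:**
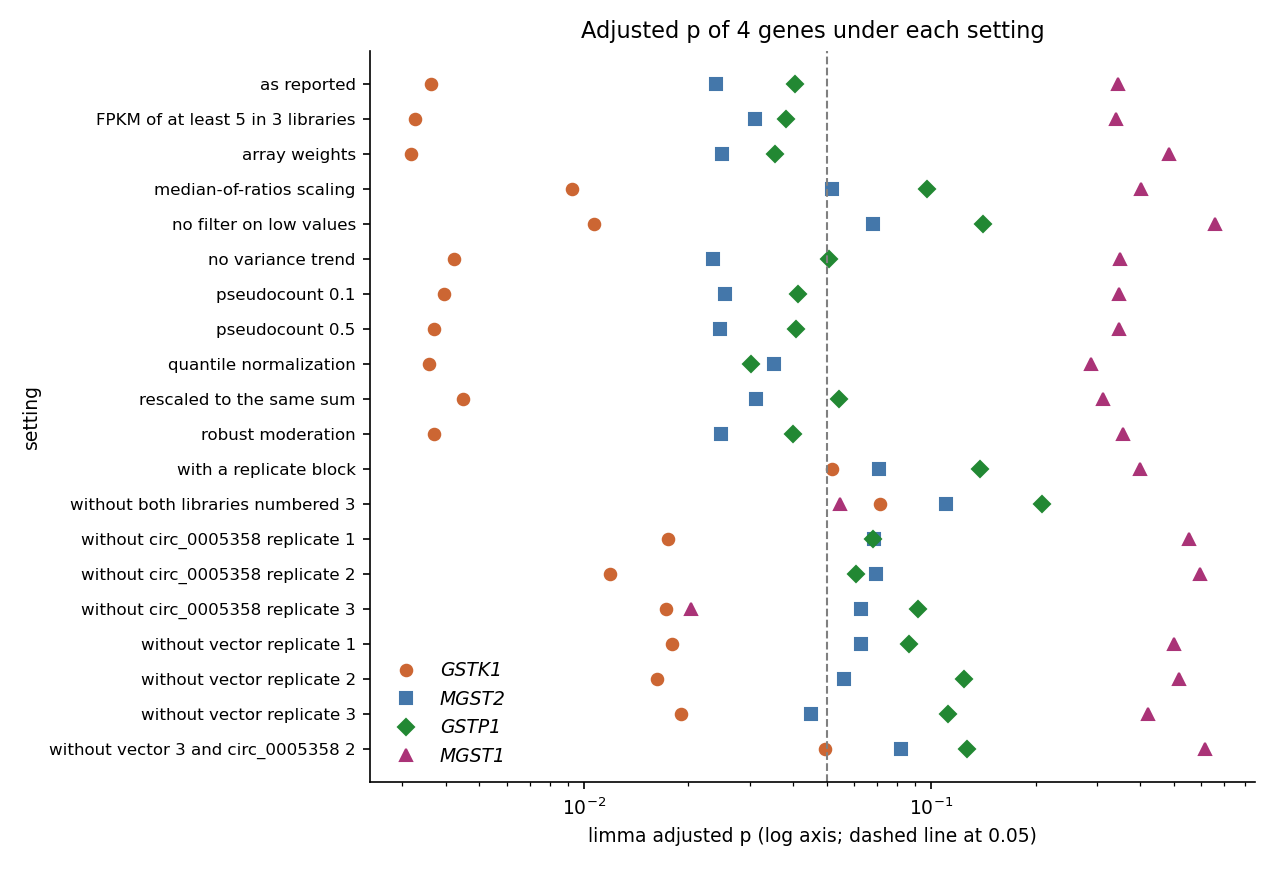
Limma adjusted p (log axis) of GSTK1, MGST2, GSTP1 and MGST1 as reported and under each alternative setting, with a dashed line at 0.05. GSTK1 lies right of the line in 2 settings, MGST2 in 10 and GSTP1 in 13, while MGST1 lies left of it only without circ_0005358 replicate 3.

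The loci on either side of each gene were set beside it, 25 tested loci on each side in GENCODE 29 order on GRCh38. These windows were wide, from 5.58 Mb around GSTP1 to 31.0 Mb around MGST2, with 15.5 Mb around GSTK1. Around GSTK1, on the distal long arm of chromosome 7, 12 of 50 neighbours rose and 0 fell, 88% had a positive log2 fold change and their median was 0.29. Over all tested loci, 6.41% rose, 4.96% fell and 53.0% had a positive log2 fold change. GSTK1 exceeded that median by 0.36, and 6 neighbours had a larger log2 fold change. The nearest on each side both rose: EPHB6, an Eph receptor without kinase activity, from 3.03 to 7.02 FPKM (limma adjusted p = 0.0046) and CASP2, a caspase, from 15.6 to 21.8 FPKM (adjusted p = 0.0054). The part of this stretch of chromosome in the change of GSTK1 was not tested.

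MGST2 stood apart from its neighbours on chromosome 4, whose median was -0.06 with 1 higher and 3 lower of 50. Its log2 fold change exceeded that median by 0.61, and 2 neighbours lay above it. The neighbour that rose was SLC7A11, the cystine transporter gene, 7 tested loci away, and the nearest loci, SETD7 (0.02) and SCOC (-0.08), did not pass the test. Around GSTP1 on chromosome 11 the median was 0.09, with 5 higher and 0 lower of 50, and the nearest loci CDK2AP2 (-0.03) and NDUFV1 (0.17) did not pass. Medians around GSTM3 (-0.03), GSTO1 (-0.02), GSTZ1 (-0.08), MGST3 (0.03) and MGST1 (-0.09) lay near 0.

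**Figure D4:**
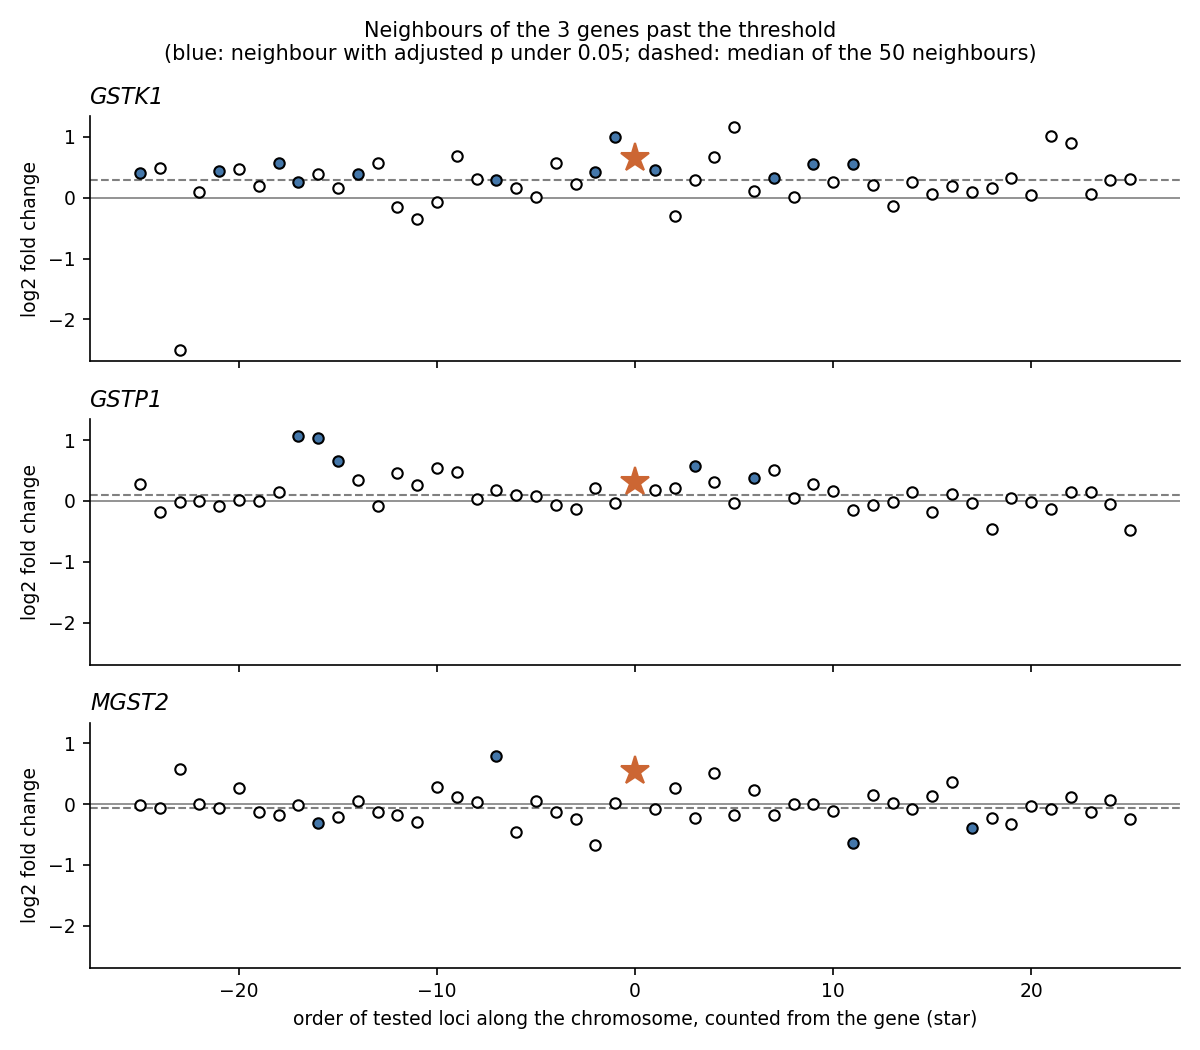
Log2 fold change of FPKM + 1 (circular RNA plasmid minus vector) of the 25 tested loci on each side of GSTK1, GSTP1 and MGST2 (star), in chromosome order; filled circles have an adjusted p under 0.05 and the dashed line is the median of the 50 neighbours. The dashed line lies at 0.29 for GSTK1, 0.09 for GSTP1 and -0.06 for MGST2.

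Genes around the transferases were read from 11 lists with 93 genes, of which 57 were tested. The lists cover the synthesis, use and export of glutathione, and also NRF2 with its partners and targets, other transferases and MAPEG proteins, proteins with a related fold, and tyrosine breakdown. Of the tested genes, 9 rose and 3 fell, 21.1% together against 11.4% of all tested loci, with a median log2 fold change of 0.05. The lists were chosen with earlier results of these data known. In synthesis, 3 of 8 tested genes rose and 1 fell. SLC1A1, a glutamate and cysteine transporter, rose from 0.605 ± 0.0504 to 4.42 ± 0.418 FPKM (limma adjusted p = 0.00044). All 3 vector libraries were below 1 FPKM, so this gene passed the filter only through the group in which it is high. It is included in the counts of 9 and 3 genes that rose and in the 21.1%, and its adjusted p is not taken as support. CBS, which makes cystathionine from homocysteine, rose from 5.86 to 9.82 FPKM (adjusted p = 0.0031). SLC7A11 rose from 6.72 to 12.4 FPKM (adjusted p = 0.013). CTH, which releases cysteine from cystathionine, fell from 6.18 to 4.30 FPKM (adjusted p = 0.018), so that the 2 enzymes of this route moved in opposite directions. The SLC7A11 call ended without vector replicate 2 (adjusted p = 0.054). The CTH call ended without vector replicate 2 (0.068) or 3 (0.063) or circ_0005358 replicate 1 (0.058) or 3 (0.064).

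The enzymes that build the tripeptide itself did not pass the test. GCLC, the catalytic subunit of the first step, stood at 3.24 to 3.93 FPKM over all 6 libraries (limma adjusted p = 0.565), and GSS, the second enzyme, at 34.5 to 39.2 FPKM (adjusted p = 0.865). GCLM, the regulatory subunit, was uneven within groups, with 29.3 FPKM in circ_0005358 replicate 1, 21.4 FPKM in vector replicate 2 and 8.07 to 10.7 FPKM in the other 4 libraries. None of 7 tested genes of recycling and breakdown passed in either direction, nor did any of 9 peroxidases and reductases that use glutathione. Across all tested loci 11.4% passed, so few calls would be looked for in lists of this size. GPX4, which reduces lipid peroxides, had 34.8 FPKM with vector and 44.6 FPKM with the plasmid (adjusted p = 0.125).

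**Figure D5:**
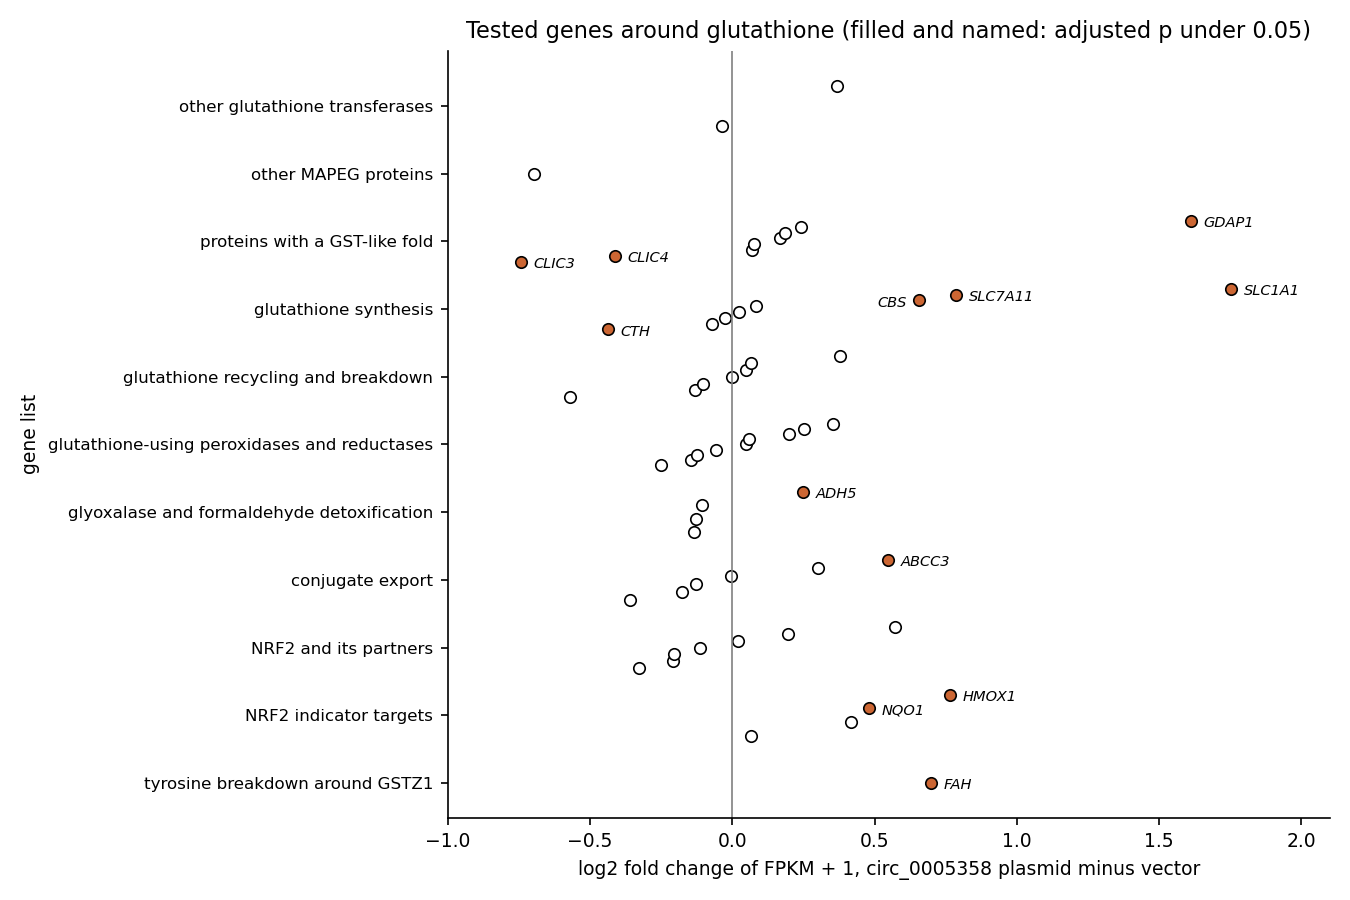
Log2 fold change of FPKM + 1 (circular RNA plasmid minus vector) of the 57 tested genes in 11 lists around glutathione; filled, named points have an adjusted p under 0.05. Of the named points 9 lie right of 0 and 3 (CTH, CLIC3 and CLIC4) lie left of it.

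Export of glutathione conjugates was represented by 6 tested genes, of which 1 rose and 0 fell, against 6.41% and 4.96% of all tested loci. This was ABCC3, a basolateral pump for conjugates, with 8.34, 8.48 and 9.39 FPKM with vector and 12.9, 14.2 and 12.6 FPKM with the plasmid (limma adjusted p = 0.011, or 0.051 without vector replicate 2). Another pump gene, ABCC1, had 13.3 FPKM with vector and 12.1 FPKM with the plasmid (adjusted p = 0.24). ADH5, which oxidises the glutathione adduct of formaldehyde, rose from 14.7 to 17.7 FPKM (adjusted p = 0.036), a call lost under 13 of 19 alternatives, among them each of the 6 single-library omissions (adjusted p from 0.055 to 0.115). Around GSTZ1 in tyrosine breakdown, FAH, the next enzyme of that route, was the only tested gene and rose from 1.37 to 2.84 FPKM (adjusted p = 0.0073).

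NRF2 and its partners gave 0 calls among 7 tested genes, where 11.4% of all tested loci were called. NFE2L2, which encodes NRF2, had 20.6, 22.0 and 8.27 FPKM with vector and 23.4, 24.2 and 23.6 FPKM with the plasmid (limma adjusted p = 0.38), with vector replicate 3 far below the rest. Of 6 NRF2 target genes listed, 4 had a row of their own and were tested. Of these 4, 2 rose, against 6.41% of all tested loci, in a short list chosen with earlier results of these data known. HMOX1, heme oxygenase, went from 10.5 to 18.6 FPKM (adjusted p = 0.011). NQO1, a quinone reductase, went from 340 to 478 FPKM (adjusted p = 0.041), a call lost under 10 of 19 alternatives, including the omission of any 1 library other than circ_0005358 replicate 2 (adjusted p from 0.091 to 0.124). TXN (adjusted p = 0.059) and TXNRD1 (adjusted p = 0.84), of the thioredoxin system, did not pass.

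Of 14 other glutathione transferase genes, 12 had a row of their own and GSTT1 and GSTT4 were not analysed here. Only GSTT2B, a near-identical copy of GSTT2, and GSTCD reached the filter, and neither passed the test (limma adjusted p = 0.90 and 0.44). Among 8 tested proteins with a related fold, 1 rose and 2 fell, against 6.41% and 4.96% of all tested loci. GDAP1, an outer mitochondrial membrane protein, rose from 1.14 ± 0.193 to 5.53 ± 0.408 FPKM (limma adjusted p = 0.00081). The chloride channel relatives CLIC4, from 147 to 110 FPKM (adjusted p = 0.014), and CLIC3, from 5.60 to 2.98 FPKM (adjusted p = 0.039), fell. The calls of CLIC4 and CLIC3 were lost under 8 and 9 of 19 alternatives, and that of GDAP1 under 0 of 19. Without circ_0005358 replicate 3 or vector replicate 1 or 2 the CLIC4 call ended (adjusted p from 0.051 to 0.060), and omitting any 1 library except circ_0005358 replicate 1 ended that of CLIC3 (0.069 to 0.113).

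As a description, the tested protein-coding genes whose log2 levels followed a member most closely over the 6 libraries were listed for 2 members. For GSTP1 they included ISOC2 (Pearson r = 0.994) and ISL2 (0.991). For GSTK1 they were NEDD4 (Pearson r = 0.999), PDE3B (0.998) and AIFM2 (0.998). PDE3B had a mean of 0.688 FPKM with vector and 2.78 FPKM with the plasmid, and passed the filter only through the plasmid libraries. The points share their libraries and the split into 2 groups, and all 5 genes named had a higher mean with the circular RNA plasmid.

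Pearson correlations of log2 levels over the tested loci ran from 0.932 to 0.939 for libraries of the same group and from 0.908 to 0.917 across groups. Depth relative to the deepest library, estimated from the value of 1 fragment, was 71.1% in circ_0005358 replicate 2 and 93.6% to 100% in the others. That library held the highest values of GSTP1, GSTM3, MGST2 and GSTZ1 and the lowest value of MGST1. Vector replicate 3 listed 27803 loci above 0, against 23227 to 23834 in the others. Of 6 epithelial and SiHa markers 5 reached 1 FPKM, and their summed FPKM was 672 to 710 with vector and 437 to 500.4 with the plasmid. Among them KRT7, KRT8, KRT18 and EPCAM fell, while KRT5 stayed under 0.5 FPKM. CDKN2A, also in the sum, had 15.8 FPKM with vector and 17.6 FPKM with the plasmid and did not pass (limma adjusted p = 0.68). Of 5 leukocyte markers only CD14 reached 1 FPKM, with sums of 10.4 to 13.4 and 1.48 to 16.4 FPKM, and PTPRC, CD3E and LYZ stayed under 0.5 FPKM. Of 5 fibroblast markers only LUM did, with sums of 6.97 to 10.4 and 1.85 to 2.34 FPKM, and LUM fell. No endothelial, hepatocyte or erythroid marker with a row of its own reached 1 FPKM. The part of these shifts in the transferase results was not tested.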

How the data were processed

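PolyA RNA of 6 SiHa libraries, 3 per group, was analysed. The authors deposited 1 table of FPKM values for 35544 loci. The submitters' processing notes name Trimmomatic, HISAT2 and the build hg19; which program and annotation gave the FPKM is not given in the sources used here. The table holds no counts or coordinates, and the positions given are GENCODE 29 positions on GRCh38, which is another build than that of the alignment.

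The 10295 loci that reached 1 FPKM in at least 3 libraries were tested with limma 3.58.1 in R 4.3.3. The test was two-sided, on log2(FPKM + 1) and with a trended variance, and p-values were adjusted over all of these loci by Benjamini-Hochberg, with a threshold of 0.05. Fold changes on this scale understate the change of low genes. Exact permutation tests were two-sided, of 3 against 3 libraries. The members and lists were chosen with earlier results of these data known. Named are all members, up to 4 genes past the threshold per list (otherwise those with the smallest p), the mu cluster, the nearest tested neighbours and the 3 most similar genes of 2 members, apart from items not reported here. GCLC, GCLM, GSS, GPX4, ABCC1, NFE2L2, TXN, TXNRD1, PTGES, GSTA2, GSTT2B and GSTCD, which did not pass, were chosen after their values were seen. Alternatives were other pseudocounts, filters, scalings, variance models and thresholds, a replicate block and omitted libraries. The depth estimates carry no counting intervals, because the table holds no counts.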

Additional observations from a re-analysis of the deposited data

How the results depend on the processing

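The 3 calls among the members became 1 with median-of-ratios scaling, 1 with no filter on low values, 1 without vector replicate 3 and circ_0005358 replicate 2, and 0 without both libraries numbered 3; the last 2 settings were chosen after the data were seen. Over all loci, 1171 calls became 591 with no filter, 378 and 228 with those 2 omissions, and 1871 at an adjusted p of 0.1. The 12 pathway calls became 7, 7 and 2 with no filter and the 2 omissions. Omitting 1 library at a time gave 1 to 2 member calls, 582 to 802 locus calls and 5 to 12 pathway calls. The 2 member calls were GSTK1 and MGST2 without vector replicate 3. Without circ_0005358 replicate 3 they were GSTK1 and MGST1, and MGST1 was lower and not among the 3. Rescaling to the same sum changed the share of higher calls from 56.4% to 48.5%. GSTM3, GSTO1 and MGST3 stayed on the same side of the threshold under 19 of 19 alternatives, and GSTZ1 under the 18 that gave a value. The cause was not tested for any lost call.

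With a replicate block in the limma fit, 0 members, 259 loci and 2 pathway genes passed (GSTK1 adjusted p = 0.052, MGST2 0.071, GSTP1 0.138). The log2 fold changes of these genes were the same with the block, which leaves fewer degrees of freedom. Their SE was 0.071, 0.075 and 0.073 with the block, against 0.061, 0.096 and 0.067 in the main fit. Deviations from the group means correlated at 0.064, 0.048 and 0.078 between same-numbered libraries. Between libraries of different number they correlated at -0.054 to -0.011, so each library correlated best with its own number. Deviations within a group sum to 0, so positive correlations at the same number bring negative ones between different numbers. The labels do not say that the numbers mark a shared day, so the main test used no pairing and the block is given as an alternative. Precision is limited by 3 libraries per group and, for GSTA4 and GSTM4, by values near that of 1 fragment.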
